A study of Mus musculus with 10 samples.

Results

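Cytosolic ribosomal proteins are the protein parts of the ribosomes that translate nuclear-encoded mRNA. The genes described here are those whose symbol in the deposited table is Rpl (large subunit) or Rps (small subunit) followed by a number, with short suffixes allowed, together with Rpsa, Rplp0, Rplp1 and Rplp2. Symbols with the ending -ps, the Rps6k kinases and the binding protein gene Rps19bp1 were left out. This gave 88 of the 24972 genes of the table, 54 with large and 34 with small subunit names, and 11 of the 88 carry the symbol of a paralogue or copy, such as Rpl22l1 or Rps27rt.

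The study measured RNA in bulk mouse liver from tumour-bearing animals. Tumours of the Tcell low group (n = 4 libraries) are labelled 6419c1, and those of the Tcell high group (n = 6) are labelled 6555c3. Both are KPC-derived pancreatic ductal adenocarcinoma (PDAC) lines, both groups are labelled genotype WT, and the labels give no age. With 1 tumour line a group, line and T cell class cannot be told apart. The labels do not say that each library is a separate mouse, so p-values reflect library-to-library spread only, some of which may be technical. The comparison asks how the liver differs between mice whose tumours hold few or many T cells.

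A ribosome holds 1 copy of nearly every ribosomal protein, and cells keep the supply of these proteins in balance. Their mRNAs are abundant and short. They are the best known members of the TOP class, in which a tract of pyrimidines at the start of the mRNA lets mTOR and the RNA-binding protein LARP1 set how much of the mRNA is translated. In hepatocytes, which secrete most plasma proteins, ribosome supply is a large part of the cell's protein synthesis budget. Ribosomal protein genes have left many processed pseudogenes in mammalian genomes, so that reads of a gene and of its copies can be hard to separate.

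Values are scaled counts, which are gene counts that the authors brought to a common depth. They come from a kit that reads the 3′ ends of transcripts. Scaled totals ran from 7060777 to 8257373 in Tcell low and from 7000659 to 7513620 in Tcell high libraries, and depth in reads is unknown. Hepatocyte marker genes (Alb, Apoa1, Ttr, Serpina1c, Cps1 and Cyp2e1) summed to 377255 to 533412 scaled counts in Tcell low and 250514 to 521062 in Tcell high libraries, as liver tissue should show. Summed neutrophil markers were 1279 to 3022 in Tcell low against 99.0 to 994 in Tcell high libraries, with 5 of 5 tested markers called higher. Lcn2 was a large part of these sums, with 639 to 1758 in Tcell low and 56.4 to 871 in Tcell high libraries. The groups overlapped for Lcn2 and not for S100a8, S100a9, Ngp and Retnlg. Summed erythroid markers were 43163 to 98191 in Tcell low against 19681 to 51926 in Tcell high libraries, with 2 of 6 called higher. Most of each sum was Hba-a2. Hbb-bs alone of these markers had a negative log2 fold change (-2.80, not called). It had 118 to 215 in Tcell low libraries and 99.7 and 16.2 in Tcell high 2 and 4. In Tcell high 1, 3, 5 and 6 it had 3465 to 9359. T and NK cell markers summed to 50.4 to 112 in Tcell low against 53.9 to 92.6 in Tcell high libraries, with 0 of 3 tested markers called. Of the other lists, 2 of 4 sinusoidal endothelium markers (Stab2 and Lyve1) and 1 of 6 hepatocyte markers (Apoa1) were called higher. The groups overlapped for Stab2 and Lyve1. Clec4g, also of the endothelium list, had means of 350 in Tcell low and 558 in Tcell high libraries (log2 fold change -0.74, not called). Of Kupffer cell, B cell, stellate cell, cholangiocyte and proliferating cell markers 0 were called. None of the markers in the table was at 0 in every library. What part other cell types had in the results below was not tested, and in bulk tissue fewer cells of a type and less RNA per cell cannot be told apart. The libraries Tcell high 1, 3, 5 and 6 stood apart from the other 6 in many genes. At least 1 log2 unit separated them from all others in 98 genes, 2 of which (Rps2 and Rpl7a) belong to the genes described here.

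Ribosomal protein transcripts made up 3.31% to 4.78% of the scaled counts of a library, and the difference between the groups was not tested. Their summed scaled counts were 3.79%, 3.88%, 4.01% and 4.78% of the library total in Tcell low 1 to 4. In Tcell high 1 to 6 they were 3.80%, 3.31%, 3.79%, 3.47%, 4.08% and 3.80%. The means were 4.12% ± 0.451 in Tcell low and 3.71% ± 0.272 in Tcell high libraries (SD, n = 4 and 6), and the groups overlapped. Tcell low 4 had the highest share of all 10 libraries, and Tcell high 2 and 4 the lowest. Large subunit genes took 2.40% ± 0.211 of the total in Tcell low and 2.15% ± 0.134 in Tcell high libraries. Small subunit genes took 1.72% ± 0.244 in Tcell low and 1.56% ± 0.139 in Tcell high libraries.

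**Figure D1:**
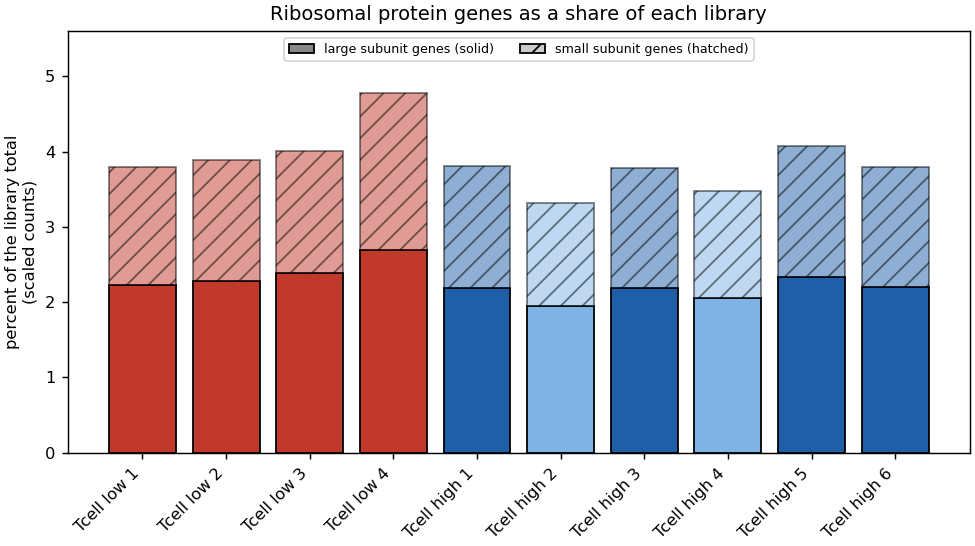
Share of each library's total scaled counts (y axis, percent) taken by large subunit genes (solid) and small subunit genes (hatched), for each library on the x axis. Red bars are Tcell low, dark blue Tcell high 1, 3, 5 and 6, and light blue Tcell high 2 and 4. Tcell low 4 is highest at 4.78% and Tcell high 2 lowest at 3.31%.

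Single genes did not move as a block. Of the 88 genes, 84 had a mean of 10 scaled counts or more and were tested, with means up to 15006 (Rpl41). By the moderated test of limma on log2(scaled count + 1), with Benjamini-Hochberg adjustment over 11110 genes and a threshold of 0.05, 6 rose in Tcell low livers, 0 fell and 78 did not pass. At an unadjusted p below 0.05, 18 were higher and 3 lower. The 6 are 7.14% of the 84, against 5.39% of all tested genes called higher, and 7.39% of all tested genes were called lower. Large subunit genes gave 4 of 50 and small subunit genes 2 of 34. The median log2 fold change of the 84, Tcell low minus Tcell high, was 0.15, against 0.003 over all tested genes. It was 0.15 for large and 0.070 for small subunit genes. Of the 84, 52 had a positive and 32 a negative fold change, and 50.2% of all tested genes had a positive one.

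The 6 calls depended on which libraries were included. There were 21 higher and 2 lower without Tcell low 1, 8 higher and 4 lower without Tcell high 2, 4 higher without Tcell high 4 and 1 higher without Tcell high 5. Without any 1 of the other 6 libraries the count was 0, with 13 to 19 members at an unadjusted p below 0.05 by limma, the only tool run. When the libraries were scaled to equal totals, the median over all tested genes shifted to -0.12 (log2), and 3 members were called higher and 0 lower. That scaling also moved the split of calls over all genes to 421 higher and 1068 lower, against 599 higher and 821 lower as deposited.

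Rpsa, on mouse chromosome 9 (120127689 to 120132369, plus strand, mm10), encodes a small subunit protein that is also known as the laminin receptor precursor. It had 3689, 4949, 5000 and 6397 scaled counts in Tcell low libraries, against 2468 to 3316 in Tcell high libraries with a median of 2850. All 4 Tcell low libraries lay above all 6 Tcell high libraries. The log2 fold change was 0.78 (SE 0.18, adjusted p = 0.0236 by limma). It was close to the same against Tcell high 2 and 4 alone (0.77) and against Tcell high 1, 3, 5 and 6 alone (0.79).

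Rps14, on chromosome 18 (60747098 to 60778546, plus strand), encodes a small subunit protein of the platform where mRNA leaves. Tcell low libraries had 11964, 21872, 19727 and 28636 scaled counts. Tcell high libraries had 7854 to 14789, with a median of 8496. Tcell low 1 lay below the highest Tcell high library, which was Tcell high 2. The log2 fold change was 1.04 (SE 0.26, adjusted p = 0.0279 by limma), and it was 0.64 against Tcell high 2 and 4 and 1.25 against the other 4.

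Rpl36, on chromosome 17 (56613416 to 56614243, plus strand), encodes a small protein of the large subunit. It had 4201, 7749, 7760 and 8340 scaled counts in Tcell low libraries, against 3516 to 4349 with a median of 3974 in Tcell high libraries (log2 fold change 0.79, SE 0.21, adjusted p = 0.0325 by limma). Tcell low 1 lay among the Tcell high libraries and the other 3 above all of them.

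Rpl35, on chromosome 2 (39001580 to 39005624, minus strand), encodes a protein near the exit of the tunnel through which the nascent chain leaves. Tcell low libraries had 4879, 10010, 9892 and 8113 scaled counts, and Tcell high libraries 3123 to 7101 with a median of 3329. Tcell low 1 lay below Tcell high 2 and 4. The log2 fold change was 1.00 (SE 0.28, adjusted p = 0.0410 by limma), but 0.40 against Tcell high 2 and 4 and 1.29 against the other 4.

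Rpl41, on chromosome 10 (128548114 to 128549305, minus strand), encodes the shortest ribosomal protein, a basic peptide. Its values were 14815, 21602, 23051 and 19581 scaled counts in Tcell low and 9604 to 17077, with a median of 10543, in Tcell high libraries (log2 fold change 0.75, SE 0.21, adjusted p = 0.0410 by limma). The groups overlapped, since Tcell low 1 lay below Tcell high 2.

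Rpl14, on chromosome 9 (120571444 to 120574654, plus strand), had 2704, 3337, 4092 and 3605 scaled counts in Tcell low libraries. Tcell high libraries had 1729 to 2679, with a median of 2251 (log2 fold change 0.63, SE 0.18, adjusted p = 0.0444 by limma). The groups did not overlap, although the gap between 2704 and 2679 was small. Complete separation with Tcell low above was seen for 6 of the 84 members, namely Rpl13, Rpl13a, Rpl14, Rpl23, Rps16 and Rpsa, and for 3.37% of all tested genes. Only Rpsa and Rpl14 of these 6 passed the test. The reverse separation was seen for 0 members and for 4.02% of all tested genes.

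**Figure D2:**
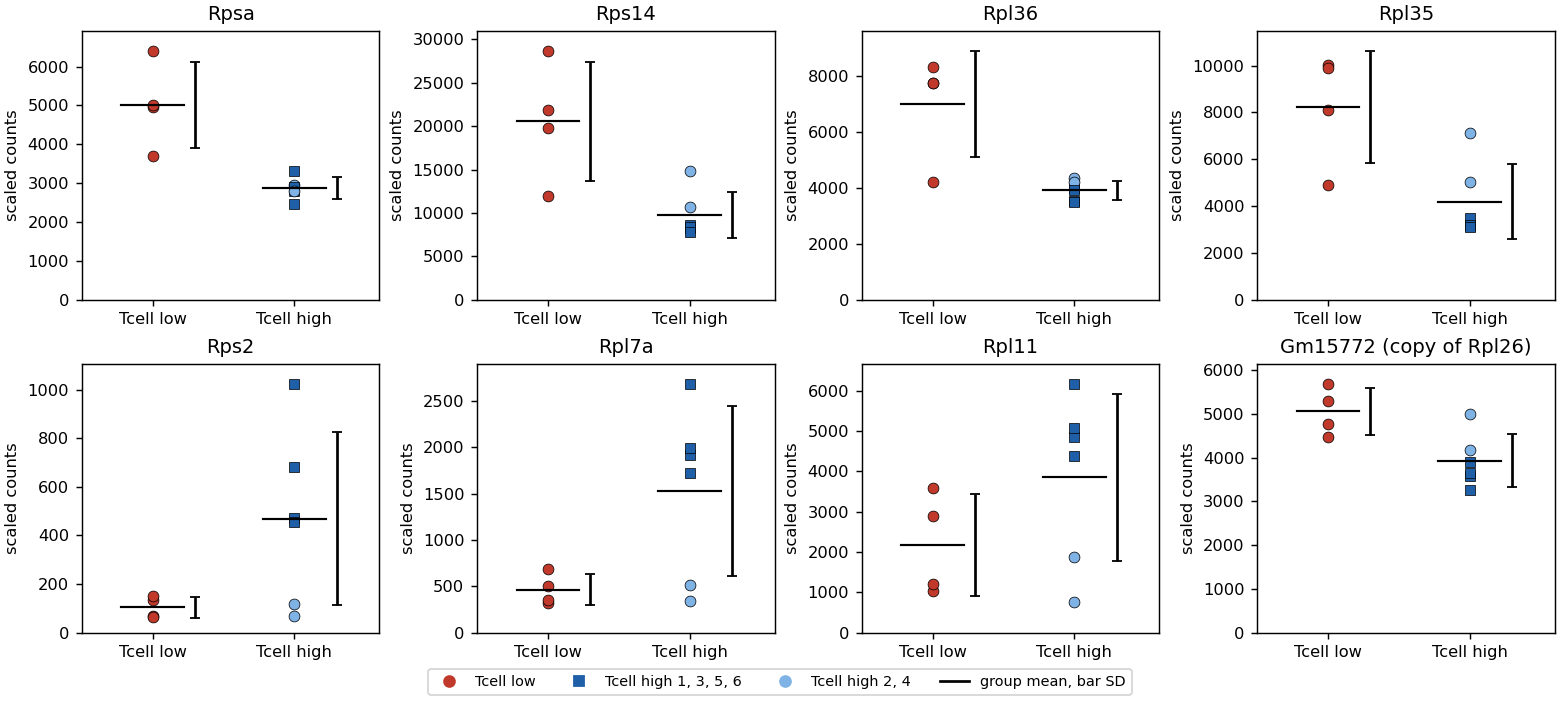
Scaled counts (y axis, from 0) of 7 ribosomal protein genes and of Gm15772, an annotated copy of Rpl26, in Tcell low (red circles) and Tcell high libraries (dark squares for 1, 3, 5 and 6, light circles for 2 and 4). Lines are group means and bars the SD. Rpsa separates the groups, while Rps2, Rpl7a and Rpl11 separate Tcell high 1, 3, 5 and 6 from all others.

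The proteins of the stalk that recruits elongation factors did not pass. Rplp1 had 11897, 17376, 17573 and 17089 scaled counts in Tcell low and 10240 to 14716, with a median of 11436, in Tcell high libraries (log2 fold change 0.41, SE 0.19, adjusted p = 0.148 by limma). Rplp2, its partner, had 7851 ± 1061 in Tcell low and 5769 ± 306 in Tcell high libraries (0.44, SE 0.16, adjusted p = 0.0843), with Tcell low 1 at 6301 just below the highest Tcell high library at 6319. Rplp0, the anchor of the stalk, had 2114 ± 327 in Tcell low and 1942 ± 302 in Tcell high libraries (0.13, SE 0.18, adjusted p = 0.648).

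Rpl13a, whose protein can also silence inflammatory mRNAs once released from the ribosome in human monocytes, had 8166, 8596, 9822 and 12170 scaled counts in Tcell low and 5740 to 8106 in Tcell high libraries. The groups did not overlap, and the difference of 0.46 log2 units (SE 0.19) did not pass (adjusted p = 0.108 by limma). Rps6, the substrate of the S6 kinases, had 3223 ± 718 in Tcell low and 2847 ± 597 in Tcell high libraries (0.18, SE 0.22, adjusted p = 0.572). Rps20 and Rpl23, the other genes among the 6 of highest mean that did not pass and are not yet described, had log2 fold changes of 0.77 (SE 0.29, adjusted p = 0.0902) and 0.31 (SE 0.17, adjusted p = 0.204). Rps20 had its lowest values in Tcell high 1, 3, 5 and 6.

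**Figure D3:**
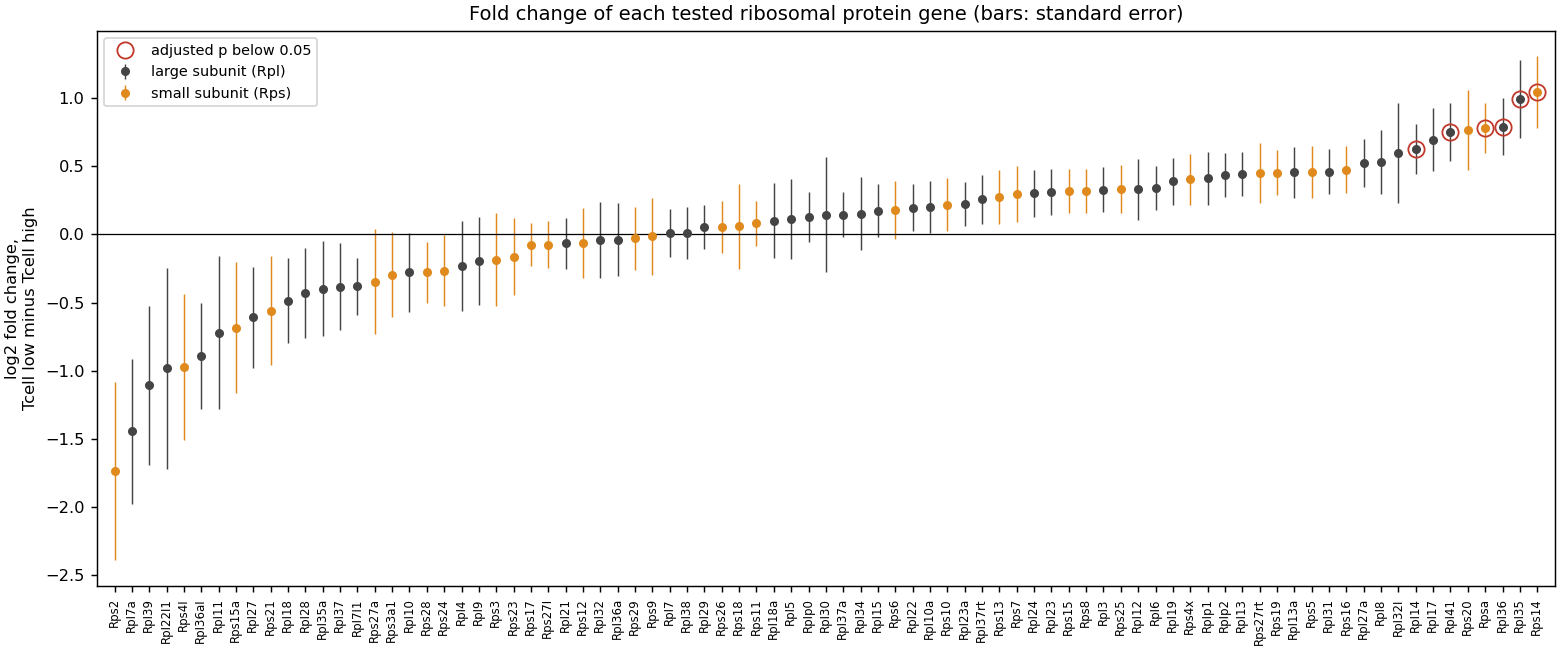
Log2 fold change, Tcell low minus Tcell high (y axis), of 83 tested ribosomal protein genes in rising order (x axis), with the standard error as bars. Rps27, listed at 0 in 8 libraries, is left out. Red rings mark the 6 genes with an adjusted p below 0.05, all at the upper end, and the lowest value is that of Rps2 at -1.74.

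The members also differed among the Tcell high libraries. In 48 of the 84 members Tcell high 1, 3, 5 and 6 were all above Tcell high 2 and 4, and in 15 they were all below. The same order was seen in 21.8% and 20.9% of all tested genes, against 57.1% of the members for the first. A difference in mean of at least 1 log2 unit, with Tcell high 1, 3, 5 and 6 higher, was seen in 19 members (22.6%) and in 10.5% of all tested genes. The opposite difference was seen in 2 members, Rpl30 and Rps27, and in 4.36% of all tested genes. Marker sums also differed between these libraries. Hepatocyte markers summed to 413656 to 521062 in Tcell high 1, 3, 5 and 6, and to 250514 and 323399 in Tcell high 2 and 4. Within that list Alb differed by 1.39 log2 units and Ttr by -0.084. Stellate cell sums were higher in the set of 4 as well. Proliferating cell sums were 29.7 to 133 against 354 and 361. The sums of the other lists overlapped. What part this had was not tested. This comparison of libraries within 1 group was described without a test, because the set of 4 was recognised from the data.

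Rps2 encodes a protein at the entry of the mRNA channel. Of the 84 members it had the largest difference with Tcell high 1, 3, 5 and 6 above Tcell high 2 and 4, at 2.78 log2 units. It lies on chromosome 17 (24718116 to 24721929, plus strand). It had 681, 471, 1023 and 456 scaled counts in Tcell high 1, 3, 5 and 6, and 68.6 and 116 in Tcell high 2 and 4. Tcell low 1 to 4 had 134, 69.9, 63.7 and 149, close to Tcell high 2 and 4. The log2 fold change of Tcell low against Tcell high was -1.74 (SE 0.65, adjusted p = 0.0875 by limma), the lowest of the members, but 0.12 against Tcell high 2 and 4 alone.

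Rpl7a, a large subunit gene on chromosome 2 (26910764 to 26913318, plus strand), had the same arrangement, with 1914, 1727, 2684 and 1990 scaled counts in Tcell high 1, 3, 5 and 6. Tcell high 2 and 4 had 339 and 508, and Tcell low 1 to 4 had 506, 317, 349 and 684. It and Rpl39 were chosen after their values were seen. Rpl39, whose protein lines the exit tunnel, had 1535, 1236, 2040 and 1308 scaled counts in Tcell high 1, 3, 5 and 6, against 225 and 383 in Tcell high 2 and 4 and 195 to 706 in Tcell low libraries. Neither passed the test between the groups (adjusted p = 0.0816 for Rpl7a and adjusted p = 0.193 for Rpl39 by limma).

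Rpl11 and Rpl5 bind a small ribosomal RNA together, and when free they inhibit Mdm2, which links ribosome assembly to p53. Rpl11, on chromosome 4 (136028265 to 136053428, minus strand), had 4856, 4375, 6163 and 5060 scaled counts in Tcell high 1, 3, 5 and 6. It had 746 and 1877 in Tcell high 2 and 4, and 2880, 1028, 1207 and 3596 in Tcell low 1 to 4. Its group difference was -0.72 on the log2 scale (SE 0.56, adjusted p = 0.373 by limma), which became 0.68 against Tcell high 2 and 4 and -1.42 against the other 4. Rpl5 had 3616, 2877, 3191 and 6217 scaled counts in Tcell low libraries and 2048 to 4906, with a median of 4053, in Tcell high libraries (0.11, SE 0.30, adjusted p = 0.806). Tcell high 2 was the lowest of the 10 libraries for both genes, and the spread was larger for Rpl11.

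Of the small subunit genes with other duties, Rps27a and Rps3 also had Tcell high 1, 3, 5 and 6 above Tcell high 2 and 4. Rpsa did not, with a difference in mean of -0.016 log2 units. Rps27a, whose protein is made as a fusion with ubiquitin, had 2613 ± 1094 scaled counts in Tcell low and 3518 ± 1627 in Tcell high libraries, and the difference of Tcell high 1, 3, 5 and 6 from Tcell high 2 and 4 was 1.48 on the log2 scale. Rps3, which also has a part in DNA repair, had 1631 ± 745 in Tcell low and 1841 ± 626 in Tcell high libraries, and that difference was 1.10. Neither passed the group test (adjusted p = 0.540 for Rps27a and adjusted p = 0.728 for Rps3 by limma).

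Other members ran the opposite way. Tcell high 1, 3, 5 and 6 were below all 6 other libraries in 11 members, among them Rps14, Rps20, Rpl35, Rpl36, Rpl41, Rpl14, Rplp1 and Rplp2, so that 5 of the 6 genes that passed the group test were of this kind. They were above all 6 others in 14 members, among them Rps2, Rpl7a, Rpl11 and Rpl39. Over all tested genes the shares were 6.95% below and 11.1% above.

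**Figure D4:**
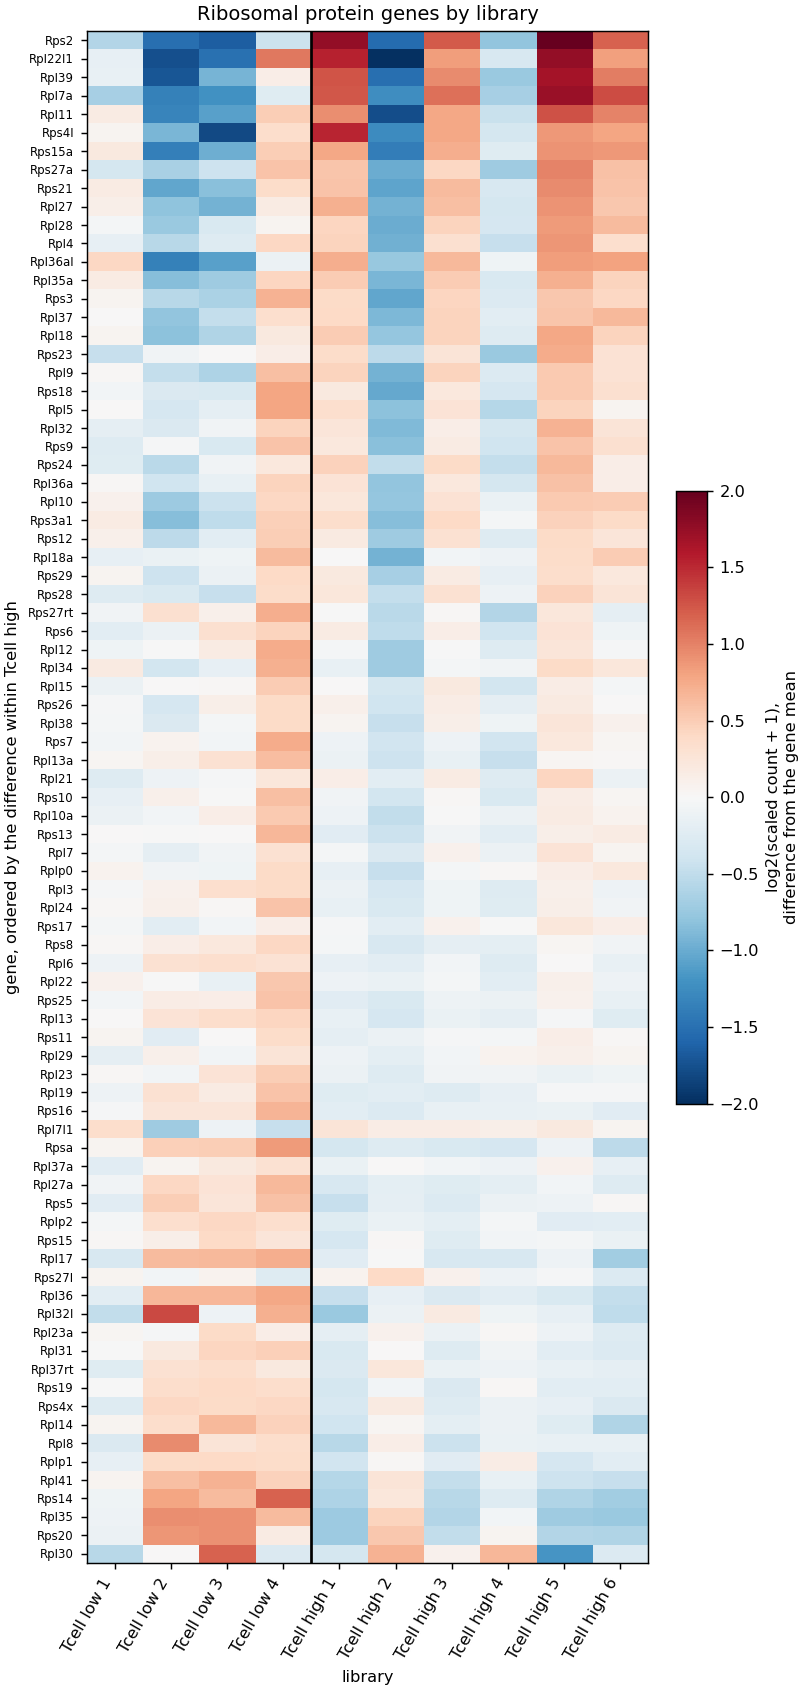
Log2(scaled count + 1) of 83 tested ribosomal protein genes (rows) in each library (columns, Tcell low on the left), as a difference from the gene's mean over the 10 libraries, with red above and blue below the mean and the scale ending at 2 log2 units. Rows are ordered by the difference of Tcell high 1, 3, 5 and 6 from Tcell high 2 and 4. The upper rows are high in those 4 libraries and low in Tcell low 2 and 3 and Tcell high 2, and most of the lowest rows show the reverse.

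Against Tcell high 2 and 4 alone, 79 of the 84 members had a positive difference, with a median of 0.41 on the log2 scale, against 0.004 over all tested genes. The exceptions were Rpl30, Rpl36al, Rpl7l1, Rps27 and Rps27l. Against Tcell high 1, 3, 5 and 6 alone, 44 members had a positive difference and the median was 0.038, against 0.008 over all tested genes. Both differences use the same Tcell low libraries and are therefore linked. Tcell high 2 and 4 also had the lowest summed shares of all libraries (3.31% and 3.47%), and the split was recognised from the data. A positive difference of most members against them is therefore not an independent result. With the set of 4 as a covariate, the group difference becomes that against Tcell high 2 and 4. In that fit limma called 0 of the 84 members, with 17 at an unadjusted p below 0.05. Over all genes it called 0 of 11110, with 1788 at an unadjusted p below 0.05. The set was recognised from the same values, and the reference is Tcell high 2 and 4 only. These counts therefore cannot decide whether the groups differ.

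**Figure D5:**
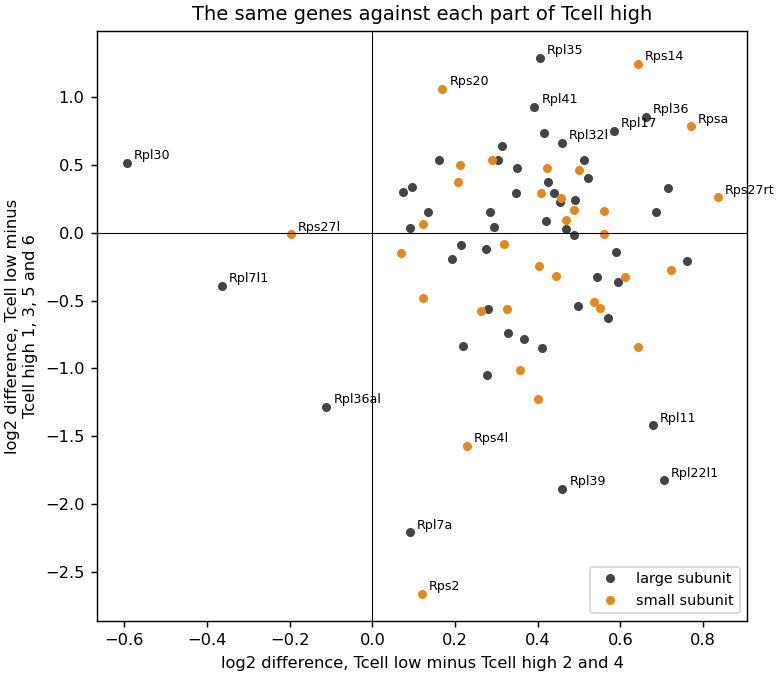
Log2 difference of Tcell low from Tcell high 2 and 4 (x axis) and from Tcell high 1, 3, 5 and 6 (y axis) for 83 tested ribosomal protein genes, 1 point each, dark for large and orange for small subunit genes. Nearly all points lie right of 0, while on the y axis they spread from Rps2 at -2.66 to Rpl35 at 1.29.

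Starts of some of these genes are shown because a pyrimidine tract at the start is what the family's mRNAs are known for, and because they stand on both sides of the order described above. RefSeq promoters (GRCm38.p6) were matched by symbol for 67 of the 88 genes. Each stretch runs from 30 bases before to 20 bases from the annotated start, 5′ to 3′ on the gene's strand. Capitals mark the longest run of C or T that begins with C, holds at least 5 letters and comes within 5 bases of the start. A sequence without capitals holds no such run.
Rpl35: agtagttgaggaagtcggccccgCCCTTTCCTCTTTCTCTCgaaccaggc
Rpl14: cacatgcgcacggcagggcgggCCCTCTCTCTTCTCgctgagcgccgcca
Rpl41: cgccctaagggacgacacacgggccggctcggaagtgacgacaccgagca
Rpsa: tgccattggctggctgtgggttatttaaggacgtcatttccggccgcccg
Rpl7a: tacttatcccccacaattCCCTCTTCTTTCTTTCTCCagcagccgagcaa
Rps2: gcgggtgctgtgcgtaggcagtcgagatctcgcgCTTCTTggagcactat
Rpl11: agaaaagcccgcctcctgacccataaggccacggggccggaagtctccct
The stretches are chr2:39005112-39005161 (minus strand) for Rpl35, chr9:120571487-120571536 (plus) for Rpl14, chr10:128549149-128549198 (minus) for Rpl41 and chr9:120127736-120127785 (plus) for Rpsa. They are chr2:26910777-26910826 (plus) for Rpl7a, chr17:24720033-24720082 (plus) for Rps2 and chr4:136053374-136053423 (minus) for Rpl11. Of the members lowest in Tcell high 1, 3, 5 and 6, Rpl35 had a run of 18 letters and Rpl14 of 14, and Rpl41 had none. Of those highest there, Rpl7a had a run of 19 letters and Rps2 of 6, and Rpl11 had none. Rpl22l1 and Rpl39, whose starts are not printed, had runs of 8 and 5 letters. Their differences within Tcell high were 2.53 and 2.35 log2 units, above the 2.10 of Rpl11.

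A C within 5 bases of an annotated start that opens a run of at least 5 letters, each C or T, on the gene's strand, was found in 31 of the 67 promoters of these genes (46.3%). It was found in 21.2% of the 27025 genes with a promoter. Among the called members with a promoter it was in 2 of 4, and among members at least 1 log2 unit higher in Tcell high 1, 3, 5 and 6 than in 2 and 4 it was in 10 of 17. The annotated start can lie some bases away from the start used in liver, so a promoter without a match here may still give a mRNA with a tract.

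Genes with the symbol of a paralogue or copy were measured beside their parents. No coding transcript was found in GENCODE vM21 for Rps4l and Rpl37rt. Rpl22l1, the paralogue of Rpl22, had 115, 37.2, 45.3 and 268 scaled counts in Tcell low and 25.9 to 436, with a median of 229, in Tcell high libraries (log2 fold change -0.98, SE 0.74, adjusted p = 0.356 by limma). Rpl22 itself had 2668 ± 586 in Tcell low and 2296 ± 170 in Tcell high libraries (0.20, SE 0.17, adjusted p = 0.437). Rpl22l1 differed by 2.53 log2 units between Tcell high 1, 3, 5 and 6 and Tcell high 2 and 4, and Rpl22 by 0.13.

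Rps4l had 75.6, 38.1, 20.2 and 93.1 scaled counts in Tcell low and 29.8 to 213, with a median of 126, in Tcell high libraries (-0.97 log2 units, SE 0.54, adjusted p = 0.213 by limma). Rps4x, its X-linked parent, had 3974 ± 806 in Tcell low and 2969 ± 399 in Tcell high libraries (0.40, SE 0.19, adjusted p = 0.150). Rpl36al had 1014 ± 571 in Tcell low and 1792 ± 641 in Tcell high libraries (-0.89, SE 0.39, adjusted p = 0.125), and Rpl36a 1767 ± 451 in Tcell low and 1855 ± 577 in Tcell high libraries (-0.037, SE 0.27, adjusted p = 0.935). For both pairs the mean of the paralogue was lower in Tcell low livers, and none of these differences passed.

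Rpl7l1, a paralogue of Rpl7, had 512, 246, 375 and 291 scaled counts in Tcell low and 417 to 478 in Tcell high libraries (-0.38, SE 0.21, adjusted p = 0.208 by limma), and Rpl7 had 3517 ± 536 in Tcell low and 3492 ± 476 in Tcell high libraries (0.009, SE 0.18, adjusted p = 0.975). Rps27l, a p53 target in human cells, had 1427 ± 143 in Tcell low and 1511 ± 242 in Tcell high libraries (-0.074, SE 0.17, adjusted p = 0.787). Rpl37rt had 887 ± 152 in Tcell low and 737 ± 95.1 in Tcell high libraries (0.26, SE 0.18, adjusted p = 0.321), and Rpl37 had 4692 ± 1613 in Tcell low and 6232 ± 2100 in Tcell high libraries (-0.38, SE 0.32, adjusted p = 0.403). Rpl3l, Rpl39l and Rpl10l, which are known from muscle and testis, were below the filter, with Rpl10l listed at 0 in all 10 libraries.

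Many members share 3′ end sequence with other genes. The last 400 bases of each member's coding transcripts in GENCODE vM21 were cut into words of 50 bases, and each word was looked for in other genes. Of the 81 tested members with words, 64 shared 20% or more of them and 17 shared less. Among the called genes only Rpl14 is of the second kind, with 12% shared, and the others are uncertain in this respect: 40.7% is shared for Rpsa, 33.7% for Rps14, 81.1% for Rpl36, 92.0% for Rpl35 and 47.8% for Rpl41. Genes described for their difference within Tcell high are uncertain in the same way. The shared part is 78.4% for Rps2, 86.0% for Rpl7a, 69.7% for Rpl22l1, 59.8% for Rpl11 and 26.5% for Rpl39. The 17 members that share less than 20% had a median log2 fold change of 0.31. Across the 81 members the shared part had a Spearman correlation of 0.11 with the difference within Tcell high and of -0.065 with the group difference. The mean level (log2) correlated by -0.42 with the difference within Tcell high. These are descriptions over genes that share libraries, and what lies behind them was not tested.

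Rpl26 was listed at 0 in all 10 libraries, although every ribosome needs its product. Gm15772, which GENCODE lists as a pseudogene and which shares 3′ end words with Rpl26, had 4470, 4768, 5688 and 5309 scaled counts in Tcell low and 3250 to 5002 in Tcell high libraries. Rpl30 had 60.9 ± 37.8 in Tcell low and 53.6 ± 24.3 in Tcell high libraries, while its copy Gm12191 had 1522 ± 442 in Tcell low and 1643 ± 431 in Tcell high libraries. Rpl34 had 140 ± 48.3 in Tcell low and 124 ± 30.4 in Tcell high libraries, while Rpl34-ps1 had 1606 ± 572 in Tcell low and 2165 ± 933 in Tcell high libraries. In these 3 families the copy's row holds most of the scaled counts, and the 3 were chosen after their values were seen.

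Rps27 was listed at 0 in 8 libraries and had 544 scaled counts in Tcell low 4 and 155 in Tcell high 4, so no fold is given. Rps27rt, which shares 91.1% of its 3′ end words with other genes, had 1617 ± 406 scaled counts in Tcell low and 1179 ± 256 in Tcell high libraries (log2 fold change 0.45, SE 0.22, adjusted p = 0.162 by limma). Rpl14-ps1, a copy of Rpl14, moved like it, with 477 ± 59.0 in Tcell low and 275 ± 70.8 in Tcell high libraries (0.82, SE 0.22, adjusted p = 0.0315). With both rows added together the difference for Rpl14 was 0.65 log2 units (SE 0.18, adjusted p = 0.0389 by limma).

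Of the ribosomal proteins with other names, Fau passed the test and Rack1 did not. Fau, whose product carries a small subunit protein fused to a ubiquitin-like one, had 5215, 10033, 10392 and 10476 scaled counts in Tcell low libraries, against 3345 to 5714 in Tcell high libraries (log2 fold change 0.96, SE 0.23, adjusted p = 0.0262 by limma). Tcell low 1 lay below Tcell high 2, and the other 3 lay above all Tcell high libraries. Rack1, a scaffold on the small subunit, had 2295 ± 862 in Tcell low and 2346 ± 560 in Tcell high libraries (-0.060, SE 0.26, adjusted p = 0.888 by limma).

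Of 47 tested ribosome biogenesis genes, 12 rose, 1 fell and 34 did not pass, with a median log2 fold change of 0.48. Over all tested genes 5.39% were called higher and 7.39% lower, and the median was 0.003. Tsr1, an assembly factor of the small subunit, had 247 ± 69.2 scaled counts in Tcell low and 105 ± 24.7 in Tcell high livers, a difference of 1.21 log2 units (SE 0.25, adjusted p = 0.0175 by limma). The large subunit assembly factor genes Gnl2 (1.01, SE 0.23, adjusted p = 0.0215) and Pes1 (1.00, SE 0.25, adjusted p = 0.0293) were higher as well. Emg1, a methyltransferase of the small subunit RNA, was the one that fell, with 47.4 ± 10.8 in Tcell low and 111 ± 30.2 in Tcell high livers (-1.19, SE 0.26, adjusted p = 0.0201). Tcell high 1, 3, 5 and 6 were all below Tcell high 2 and 4 in 18 of the 47 genes and all above in 6. The shares over all tested genes were 20.9% and 21.8%. Those libraries were below all 6 others for Tsr1 and Pes1 and above them for Emg1, but neither for Gnl2. Against Tcell high 2 and 4 alone, the differences were 0.84 for Tsr1, 0.75 for Pes1, 1.05 for Gnl2 and -0.76 for Emg1. How the share of calls differs between this list and the ribosomal proteins was not tested.

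Of 21 elongation factor and other TOP mRNA genes 2 rose and 0 fell, with a median of 0.32, against 5.39% of all tested genes called higher and 7.39% lower. These were the histone chaperone gene Nap1l1 (1589 ± 474 in Tcell low and 710 ± 229 in Tcell high livers, 1.16 log2 units, SE 0.28, adjusted p = 0.0246 by limma) and the initiation factor gene Eif3f (1086 ± 172 in Tcell low and 741 ± 43.8 in Tcell high libraries, 0.54, SE 0.16, adjusted p = 0.0492). Of 31 genes that control translation or these mRNAs 3 rose and 1 fell, with a median of 0.23, and these counts are near the same shares of all tested genes. Eif4ebp3, an inhibitor of cap-dependent initiation, had 121, 12949, 2499 and 4367 scaled counts in Tcell low libraries, against 137 to 279 in Tcell high libraries (3.51, SE 0.91, adjusted p = 0.0311). Tcell low 1 lay below the Tcell high range and the other 3 far above it.

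Larp4, an RNA-binding protein that stabilises mRNAs, had 1560 ± 596 scaled counts in Tcell low and 738 ± 202 in Tcell high libraries (1.04, SE 0.27, adjusted p = 0.0314 by limma). Myc, a transcription factor that drives ribosome production, had 3.47, 42.6, 24.9 and 120 in Tcell low libraries, against 0 to 8.27 in Tcell high libraries (2.96, SE 0.90, adjusted p = 0.0484). Eef2k, the kinase that slows elongation, fell to 21.6 ± 18.7 in Tcell low livers, against 56.6 ± 19.2 in Tcell high livers (-1.57, SE 0.44, adjusted p = 0.0383).

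Mitochondrial ribosomal proteins, which serve a separate ribosome, had 7 of 77 tested genes lower, 0 higher and a median log2 fold change of -0.41. The count of lower genes is near the 7.39% of all tested genes called lower, and 5.39% of all tested genes were called higher. Mrpl39 had 15.9 ± 13.4 scaled counts in Tcell low and 107 ± 59.7 in Tcell high livers (-2.79, SE 0.60, adjusted p = 0.0192 by limma). Mrpl49 (-1.19, SE 0.28, adjusted p = 0.0246), Mrpl10 (-1.21, SE 0.30, adjusted p = 0.0283) and Mrps21 (-1.15, SE 0.30, adjusted p = 0.0327) fell as well. Their summed share of the total was 0.244% to 0.366% in Tcell low and 0.346% to 0.377% in Tcell high libraries. Tcell high 1, 3, 5 and 6 lay below all other libraries for Fau, Nap1l1 and Larp4, and above them for Mrpl39 and Mrpl10. They did neither for Eif3f, Eif4ebp3, Myc and Eef2k. Over the 5 related lists 27 genes were called. The count was 77 without Tcell low 1, 55 without Tcell high 2 and 22 without Tcell high 4, and it was 0 to 5 without any 1 of the other 7 libraries.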

How the data were processed

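Liver RNA was measured in 4 Tcell low and 6 Tcell high libraries made with a 3′ end kit, per the labels' protocols. STAR, DESeq2 and mm10 were used without stated versions, per the submitters' processing notes, and neither the read counter nor the annotation is given in the sources used here. Values as deposited are a signal per gene and library, gene counts scaled by the authors, and are not whole numbers. Only 5.13% to 7.99% of low values lay on whole multiples (within 0.01) of a library's commonest step, so reads were not recovered, no counting interval was computed and depth is unknown.

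Log2(value + 1) of genes with a mean of at least 10 was compared with limma 3.58.1 in R 4.3.3 (trend, not robust, group as the only term, two-sided, Benjamini-Hochberg over 11110 genes, threshold 0.05, 13.1 degrees of freedom). The test was tried on simulated data. Members and lists were chosen with earlier results of these data known. Genes named are the called members, the 6 of highest mean, stalk and other listed proteins, tested paralogues with parents, the extreme fold changes, and up to 4 called genes per related list; 1 gene of these lists is not reported here. Alternatives covered scaling, pseudocount, filter, moderation, threshold, weights, a replicate block, the library set, shared ends and each library left out; summing with copies was added after seeing the data. Positions are from GENCODE vM21. Python 3.11.15 and matplotlib 3.10.9 made the figures.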

Additional observations from a re-analysis of the deposited data

Results flagged for a closer look

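In 64 groups of libraries checked (31 named genes and the summed share, in each group), 7 held a library far from the others by Dixon's criterion, which chance gives in about 1 in 20 groups. Tcell low 1 was far below the rest of its group for Rpl36 (4201 scaled counts), Rplp1 (11897) and Rps4x (2767). Tcell high 2 was far above the rest of its group for Rps4x (3724) and Rpl37rt (921). Rps27 stood at 544 in Tcell low 4 and 155 in Tcell high 4, the only libraries of their groups not listed at 0.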

How the results depend on the processing

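The 6 members called higher became 3 with equal totals, 1 with no filter, 14 at a threshold of 0.1, 18 with library weights, 0 with the replicate block, 0 with the library set as a covariate, 0 against Tcell high 2 and 4 alone, and 1 among members whose 3′ end is little shared. The members called lower (0) became 2 at the threshold of 0.1 and 6 with library weights. Over all tested genes the 1420 calls became 2871, 3266, 193, 0 and 0 with that threshold, the weights, the block, the covariate and Tcell high 2 and 4 alone. The 27 calls of the related lists became 16 with no filter, then 54, 75, 1, 0 and 0 in the same order. The covariate and the comparison with Tcell high 2 and 4 use a library set recognised from the same data, so their counts decide nothing. The cause of these changes was not tested. The replicate numbers did not pair the libraries: deviations of same-numbered libraries (1 to 4) correlated by 0.10, 0.21, -0.099 and -0.15, and only number 2 correlated best with its own number. The median log2 fold change of the members became 0.41 with the covariate and against Tcell high 2 and 4. With each library left out it ran from 0.011 to 0.197, members called higher from 0 to 21, called lower from 0 to 4, all calls from 109 to 3633, calls of the related lists from 0 to 77 and the difference in summed share from 0.187 to 0.517 percentage points (0.408 with all).

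Signs turned for members that were not called. With the covariate, and against Tcell high 2 and 4, values were 0.68 for Rpl11, 0.64 for Rps27a, 0.55 for Rps3, 0.70 for Rpl22l1, 0.54 for Rpl36a, 0.23 for Rps4l, 0.33 for Rpl37 and 0.12 for Rps2. Equal totals gave -0.0054 for Rpl5 and -0.11 for Rpl7, weights gave -0.12 for Rpl5 and -0.045 for Rpl7, and the block gave 0.017 for Rps3 and 0.14 for Rpl36a. With a library left out Rpl36a ran from -0.20 to 0.088, Rpl5 from -0.12 to 0.25, Rpl7 from -0.091 to 0.071 and Rps27l from -0.13 to 0.00040. Depth is not known here, which limits what can be said of Rps27 and of the genes listed at 0.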
